A study of Mus musculus with 30 samples.

Results

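The genes described here encode the nuclear subunits of the mitochondrial respiratory chain and of ATP synthase, together with the assembly factors of complex I, in mouse colon. They were chosen by name: every protein-coding gene whose symbol begins with Nduf, Uqcr, Cox4 to Cox8 or Atp5, or is Sdha, Sdhb, Sdhc or Sdhd, and whose mean over the 30 libraries was at least 1 CPM (reads of the gene divided by all reads of the library, times 1000000). Of the 55487 gene identifiers in the table, 94 coding genes had such a name and 88 reached the level. The 88 members were 7 core subunits, 29 accessory subunits and 8 assembly factors of complex I, 4 subunits of complex II, 8 of complex III, 14 of complex IV and 18 of ATP synthase. The mean level of all 30 libraries thus chose the members, and is given as a description. Just above the limit lay Atp5g2 at 1.33 CPM, Ndufs5 at 1.65 CPM and Atp5h at 1.76 CPM. Just below it lay Cox4i2 at 0.939 CPM, Ndufa4l2 at 0.789 CPM and Cox8b at 0.711 CPM, and Cox6a2, Cox8c and Cox7b2 were lower still. These 6 are paralogs of measured subunits, several of them known from lung, muscle or testis.

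Total RNA of whole colon was sequenced from the 3′ end of transcripts (QuantSeq FWD) in 30 mice, 5 in each of 6 genotypes. The controls are labelled WT. XBP1IEC-KO mice lack Xbp1, a transcription factor of the unfolded protein response, and Casp8IEC-KO mice lack Casp8, the protease that starts extrinsic apoptosis and restrains necroptosis. IEC is the usual abbreviation for intestinal epithelial cells, so the name places the deletions in the epithelium of the tissue sequenced; the sources used here give neither the Cre line nor the ages. The double knockout carried both deletions. The triple knockouts carried both as well, together with TNFR1IEC-KO, which removes the TNF receptor TNFR1 from the same cells (TNFR1 triple knockout), or with MLKLKO, which is labelled with no cell type and removes MLKL, the pore-forming executor of necroptosis (MLKL triple knockout).

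The respiratory chain passes electrons from NADH (complex I) and succinate (complex II) through coenzyme Q to complex III, and from there through cytochrome c to complex IV, which reduces oxygen. Complexes I, III and IV pump protons, and ATP synthase uses the gradient to make ATP. Most subunits are encoded in the nucleus and imported, a small set is encoded in mitochondrial DNA, and colonocytes are known to rely on this pathway to oxidise butyrate.

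Libraries held between 3516793 and 5823059.7 reads, so that 1 read was worth about 0.232 CPM, and the 88 members together took 1.41% to 2.41% of the reads. Double knockout replicate 1 stood apart: it was the highest of the 30 libraries for 44 of the 88 members, against 11 for the next library, MLKL triple knockout replicate 3. Xbp1 knockout replicate 2 had a Casp8 level of 20.6 CPM, below all 5 Casp8 knockout libraries, and MLKL triple knockout replicate 5 had an Mlkl level of 10.7 CPM, above all 5 WT libraries. Counts below were therefore repeated without these 3 libraries. Casp8 averaged 55.1 ± 2.34 CPM in WT (SD, n = 5), against 29.9 ± 4.12 where it alone was deleted and 35.6 ± 9.70 in the double knockout. For Xbp1 the WT mean was 79.0 ± 21.5 CPM, that of the Xbp1 knockout 54.0 ± 6.11 and that of the double knockout 103 ± 23.7, and Tnfrsf1a, the gene of TNFR1, averaged 72.2 ± 5.98 CPM in WT and 58.6 ± 8.25 in the TNFR1 triple knockout. TNFR1 triple knockout replicate 1 had an Xbp1 level of 104 CPM, above all 5 WT libraries. Its Tnfrsf1a level of 71.9 CPM lay within the WT range. It was nevertheless kept when the 3 libraries were left out, and only the fits without 1 library leave it out. The sources used here do not name the deleted exons. Whether the 3′ end reads lie inside the deleted parts is therefore not known. The Xbp1 level, higher in the double knockout than in WT, does not check that genotype. Nor do the Xbp1 and Tnfrsf1a levels check the genotypes of the triple knockouts. Sex, read from Xist and Y-linked genes, was unequal, with 1 female of 5 among the WT and the double knockout mice and 5 of 5 in the MLKL triple knockout; with it in the model 29 members were called in the double knockout against WT, of which 27 were among the 29 called without it.

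Compared with WT, the double knockout had higher levels of 29 members and lower levels of none among the 87 tested, at an adjusted p below 0.05 in edgeR's quasi-likelihood test fitted over 15458 genes (Atp5g2 was too low to test). This was 33.3% of the members, where 11.1% of all genes tested were called higher and 10.2% lower. The shift was small and broad: 79 of the 87 members had a positive log2 fold change, their median was 0.23, and the median of all genes was 0.01. Complex III and ATP synthase held the highest shares of called members, 6 of 8 and 8 of 17. The 8 include a second locus named Atp5o, called Atp5o readthrough here. Complex I had 2 of 7 core subunits, 8 of 29 accessory subunits and 1 of 8 assembly factors called, complex IV 4 of 14, and complex II 0 of 4. No difference between complexes was tested. In whole tissue, fewer cells of a type and less RNA per cell cannot be told apart.

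**Figure D1:**
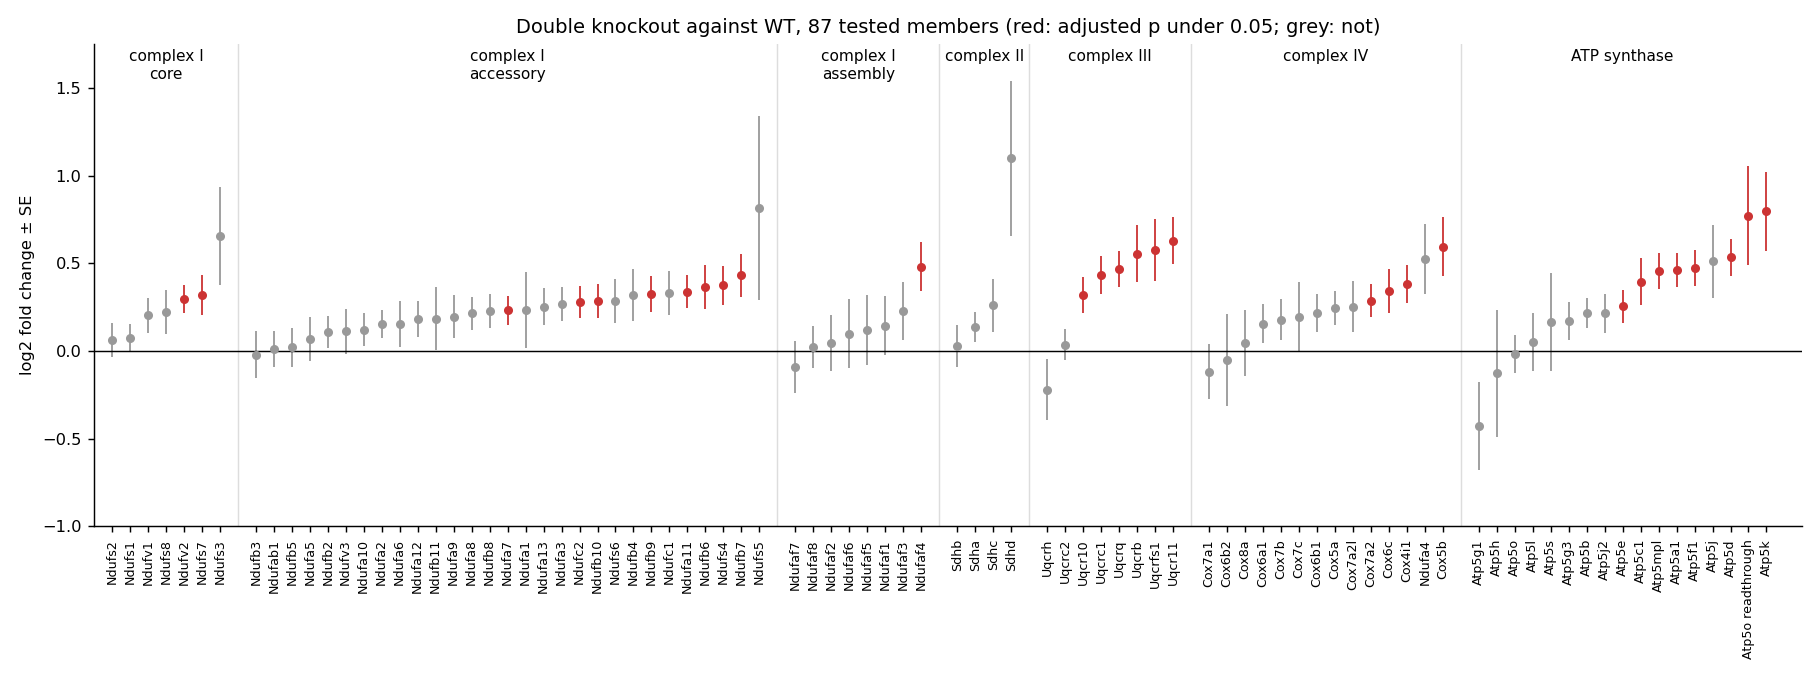
Log2 fold change (y axis, with standard error) of each of the 87 tested members in the double knockout against WT, grouped by complex along the x axis; red points passed an adjusted p of 0.05 and grey points did not. The 29 red points all lie above 0, and 6 of the 8 complex III genes are among them.

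The count depended on 1 library of each group and on the libraries fitted. It was 16 with the other 4 genotypes left out of the fit, a count given without the share of all genes called in that fit. It was also 16 without double knockout replicate 1 (with 9.84% of all genes then called higher) and 18 without WT replicate 2 (8.85%), and all of these were among the 29. Without the 3 libraries that stood apart it was 18 (10.3%), with 8 members of ATP synthase, 4 of complex III, 2 accessory subunits, 1 core subunit and 1 assembly factor of complex I, 2 of complex IV and 0 of complex II, and with a median of 0.18 over the 87. Of the 29, 11 were called in each of the 10 fits that left out 1 library and in each of the 10 other settings: Atp5a1, Atp5d, Atp5f1, Atp5k, Atp5mpl, Cox5b, Ndufa11, Ndufb7, Uqcr11, Uqcrc1 and Uqcrq.

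Summed over its members, each complex changed little. Complex III summed to 1910 ± 250.5 CPM in WT and 2172 ± 319 in the double knockout (SD, n = 5), a ratio of 1.14, and ATP synthase to between 4376 and 5197 CPM in WT and between 4779 and 6669 in the double knockout, a ratio of means of 1.18. Complex IV had a ratio of 1.15, the accessory subunits of complex I 1.12, its core subunits and its assembly factors both 1.10, and complex II 1.06. These ratios of CPM include the high double knockout replicate 1. The summed level of all members was 24121, 17292, 19695, 17401 and 17469 CPM in the 5 double knockout libraries and 15103, 15732, 17039, 17243 and 19089 CPM in the 5 WT libraries. Replicate 1 was the highest of the double knockout, replicate 3 lay just above the WT range, and replicates 2, 4 and 5 lay within it. The share of the members' reads held by each complex was nearly the same: ATP synthase took 28.1% ± 0.970 in WT and 29.1% ± 1.45 in the double knockout.

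**Figure D2:**
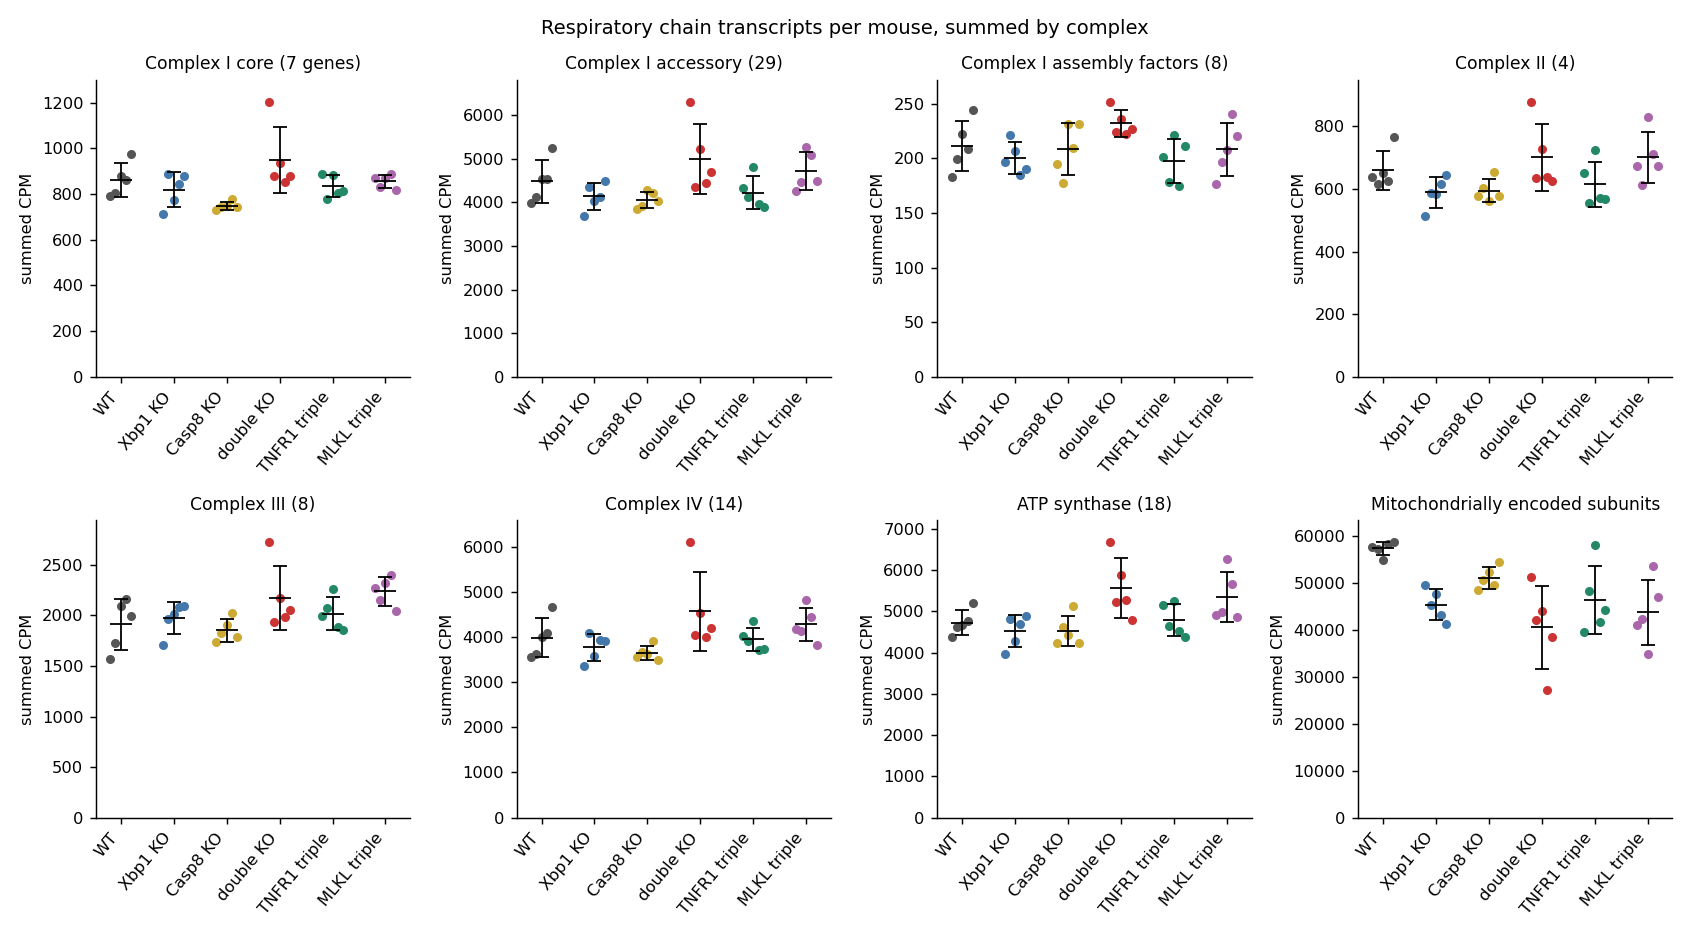
Summed CPM (y axes, from 0) of the members of each complex and of the mitochondrially encoded subunits in every mouse (dots) of the 6 genotypes (x axes), with the mean and SD as bars. In the double knockout, replicate 1 is the highest dot in each of the 7 panels of nuclear genes, and the mitochondrially encoded sum is below that of all WT mice in every library of the 5 knockout genotypes except TNFR1 triple knockout replicate 3.

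Among the 7 core subunits of complex I, which carry its flavin and iron-sulphur clusters, Ndufv2 and Ndufs7 rose. Ndufv2 was 148, 149.7, 179.7, 166 and 167 CPM in the 5 WT libraries, in the order of their replicate numbers, and 219, 196, 175, 188 and 177 CPM in those of the double knockout. Double knockout replicates 3 and 5 lay below WT replicate 3, and the groups were otherwise apart for this iron-sulphur subunit of the NADH-oxidising arm. The log2 fold change was 0.29 ± 0.0797 (standard error, SE), with an adjusted p of 0.00831. In WT, Ndufs7 was 90.4, 92.1, 107, 97.6 and 126 CPM, and in the double knockout 179.6, 98.6, 105, 115 and 120.02 CPM. Double knockout replicate 1 was far above the other libraries. Ndufs7 had a log2 fold change of 0.32 ± 0.114 and an adjusted p of 0.0415, and without that library 0.17 and 0.24. Ndufv1, the flavin subunit and the core member of highest mean CPM, was 194 ± 21.4 CPM in WT and 216 ± 31.6 in the double knockout, an adjusted p of 0.141.

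The accessory subunits surround this core and are needed for its assembly and stability. Of 29, 28 had a positive log2 fold change in the double knockout and 8 were called: Ndufa11, Ndufb7, Ndufs4, Ndufb9, Ndufc2, Ndufb10, Ndufb6 and Ndufa7. Ndufa11 was 124, 136, 160.2, 156 and 155 CPM in WT and 223, 163, 180.00, 161 and 164 CPM in the double knockout. All 5 double knockout libraries lay above all 5 WT libraries. Ndufa11, a membrane subunit, was 1 of 4 members with that separation, alongside Atp5a1, Atp5f1 and Uqcr11; 4.83% of all genes tested were separated in this direction, and no member was separated in the other, where 8.02% of all genes were. On the log2 scale Ndufa11 rose by 0.34 ± 0.0924, with an adjusted p of 0.00889. In WT, Ndufb7 was 91.3, 99.2, 94.8, 81.0 and 118 CPM, and in the double knockout 151, 105, 122, 119 and 129.8 CPM. Ndufb7 is a small disulphide-linked subunit, and its groups overlapped through WT replicate 5 and double knockout replicate 2. Ndufb7 changed by 0.43 ± 0.122 on the log2 scale (adjusted p = 0.0111). Ndufs4, a subunit whose loss in mice gives a model of Leigh syndrome, was 88.3 ± 11.5 CPM in WT and 110.2 ± 24.4 in the double knockout. For Ndufs4 the log2 fold change was 0.37 ± 0.109 and the adjusted p 0.0137. Without double knockout replicate 1 its adjusted p was 0.0799. Ndufa6, of highest mean CPM in this class, had a log2 fold change of 0.15 ± 0.132 and an adjusted p of 0.438.

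Ndufaf4 was the 1 assembly factor called among 8. It acts early in building the arm of complex I that docks quinone. Ndufaf4 was 46.6, 65.5, 73.0, 61.1 and 59.6 CPM in WT and 66.6, 87.6, 75.6, 86.5 and 92.2 CPM in the double knockout. Double knockout replicate 1, high for most members, was the lowest of its group here, and the other 4 libraries lay above all WT libraries. The log2 fold change was 0.48 ± 0.140 (SE), with an adjusted p of 0.0134. The value without WT replicate 1 was 0.40, with an adjusted p of 0.0515.

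Complex II, which oxidises succinate and is encoded wholly in the nucleus, had no called member. Sdha, the flavoprotein, was 253 ± 31.4 CPM in WT and 268 ± 38.8 in the double knockout, and Sdhb, the iron-sulphur subunit, 262 ± 47.5 and 259 ± 61.2. Sdhc, 1 of the 2 membrane anchors, was 136 ± 16.2 and 157 ± 21.6. The other anchor, Sdhd, was low and scattered: 19.8, 8.12, 5.25, 8.42 and 2.71 CPM in WT and 20.4, 35.4, 6.35, 21.6 and 8.43 in the double knockout. Its log2 fold change of 1.10 had a standard error of 0.443 and an adjusted p of 0.0741. It was called without WT replicate 1 (1.64, adjusted p = 0.0139), without double knockout replicate 3 (1.32, 0.0278) and without double knockout replicate 5 (1.28, 0.0424).

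Complex III had the highest median log2 fold change of the 7 classes, 0.45 over 8 genes. In WT, Uqcr11 was 74.0, 76.8, 94.3, 91.5 and 97.7 CPM, and in the double knockout 143, 125, 133, 124 and 120.02 CPM. The highest WT library lay below the lowest double knockout library. On the log2 scale Uqcr11 rose by 0.63 ± 0.134, with an adjusted p of 0.00117. Uqcr11 is a small supernumerary subunit of the complex. Uqcrq was 253, 276, 292, 331 and 379 CPM in WT and 457, 333, 464, 402 and 378 CPM in the double knockout. Uqcrq, which sits beside cytochrome b, overlapped between the groups through WT replicate 5 and double knockout replicates 2 and 5. Uqcrq changed by 0.47 ± 0.103 on the log2 scale (adjusted p = 0.00165). In WT, Uqcrc1 was 195, 198, 207, 211 and 275 CPM, and in the double knockout 320.4, 307, 275, 268 and 238 CPM. For Uqcrc1 the log2 fold change was 0.43 ± 0.108 and the adjusted p 0.00428. Uqcrc1 encodes a core protein of the matrix side; WT replicate 5 stood far above the other WT libraries. Uqcrb, Uqcrfs1 (the Rieske iron-sulphur protein) and Uqcr10 were also called, at log2 fold changes of 0.56, 0.58 and 0.32; Uqcr10 had an adjusted p of 0.12 without double knockout replicate 1. Uqcrc2, the second core protein, was not called.

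Uqcrh, the hinge protein between cytochrome c1 and cytochrome c and the complex III member of highest mean CPM, was not among them. Uqcrh was 378, 473, 756, 763 and 399 CPM in WT and 641, 366, 425, 367 and 504 CPM in the double knockout. WT replicates 3 and 4 lay far above the other 3 WT libraries, and the double knockout lay within the WT range except for replicates 2 and 4. The difference from WT was not called: a log2 fold change of -0.22 ± 0.173 and an adjusted p of 0.39. Against both single knockouts, whose libraries lay between 530.4 and 776 CPM (Xbp1) and between 618 and 715 CPM (Casp8), the double knockout was lower by 0.55 and 0.55 on the log2 scale, with adjusted p of 0.0437 and 0.0241. The call against the Xbp1 knockout held in 2 of the 10 fits without 1 library and that against the Casp8 knockout in 8 of 10. It is the 1 member called lower in the double knockout than in the single knockouts.

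**Figure D3:**
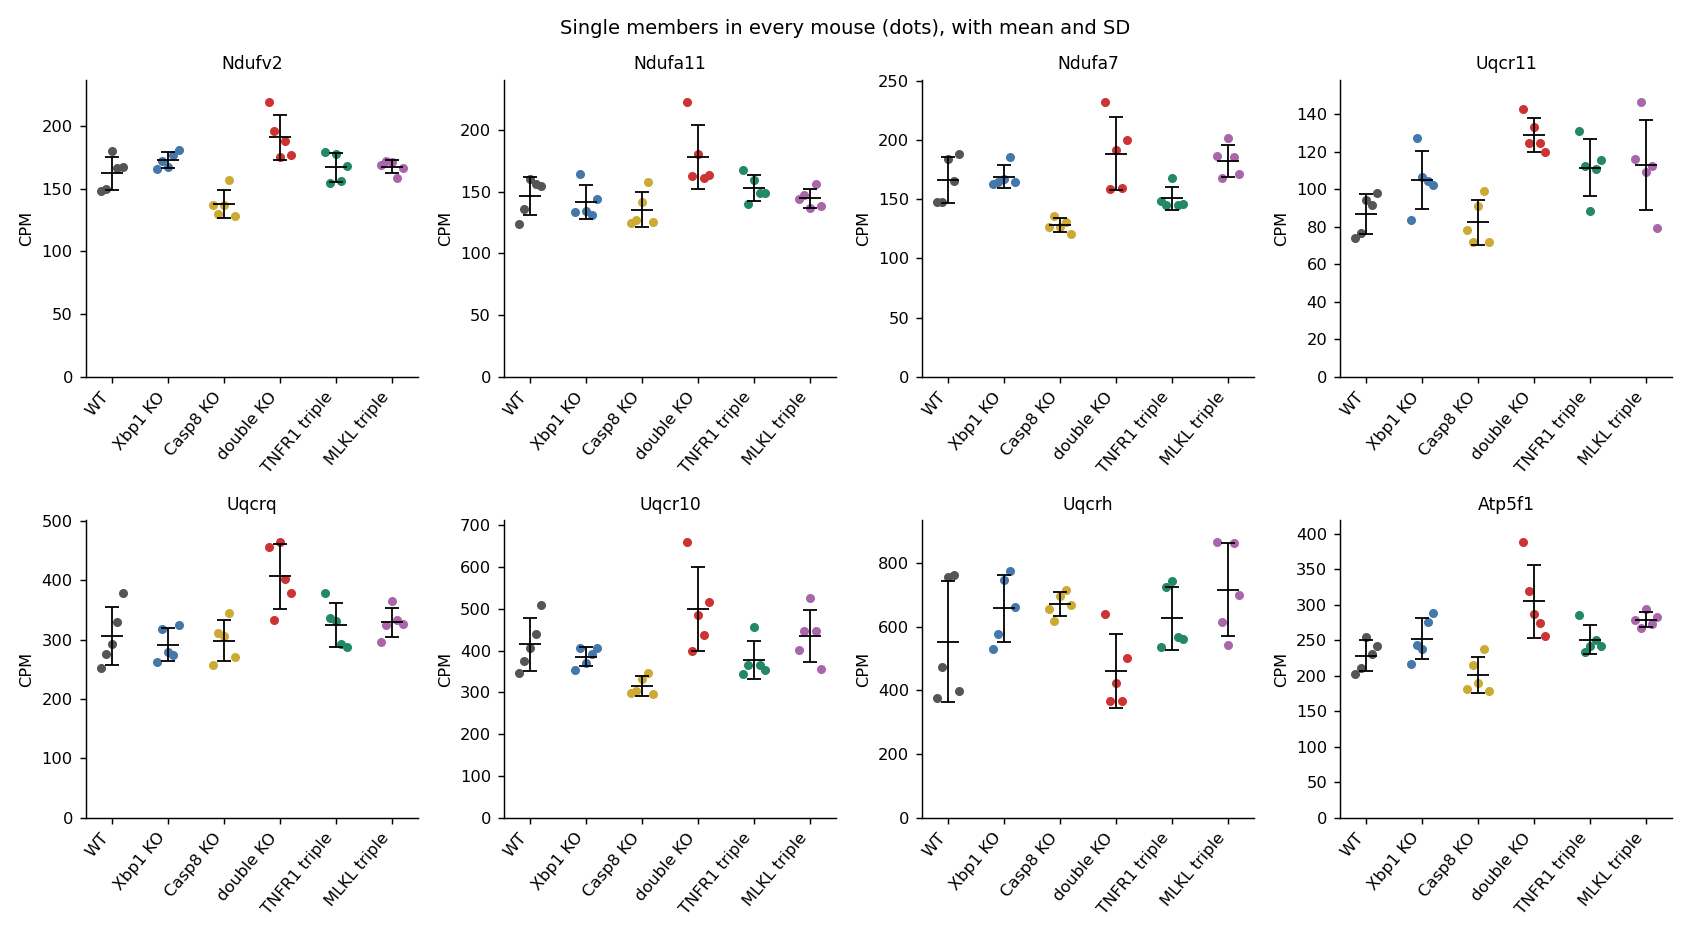
CPM (y axes, from 0) of 8 members in every mouse (dots) of the 6 genotypes (x axes), with mean and SD as bars. Uqcr11, Ndufa11 and Atp5f1 do not overlap between WT and the double knockout, Ndufa7 and Uqcr10 have their lowest mean in the Casp8 knockout, and Uqcrh is split into 3 low and 2 high libraries within WT.

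Complex IV, cytochrome c oxidase, had 4 called members of 14: Cox4i1, Cox5b, Cox7a2 and Cox6c. In WT, Cox5b was 35.1, 28.6, 34.8, 45.4 and 44.9 CPM, and in the double knockout 66.1, 62.5, 49.0, 60.3 and 35.8 CPM. Double knockout replicate 5 lay inside the WT range and the other 4 above it. The log2 fold change was 0.59 ± 0.170 (SE), with an adjusted p of 0.0121. Cox5b binds zinc on the matrix side. Cox4i1 was 659, 652, 692, 668 and 828 CPM in WT and 1277, 701, 784, 783 and 865 CPM in the double knockout. Cox4i1, the regulatory subunit that binds adenine nucleotides, was highest in double knockout replicate 1. On the log2 scale Cox4i1 rose by 0.38 ± 0.108, with an adjusted p of 0.0111. Without that library it was 0.24 with an adjusted p of 0.0672. Cox7a2 rose by 0.29 and was not called without that library (0.22, 0.0901), nor without WT replicate 1 or 2 (adjusted p = 0.0822 and 0.0896).

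Several complex IV subunits exist as tissue isoforms, and the liver-type or ubiquitous isoform was measured in most families. Levels here are CPM at the 3′ end, a tag count that is not divided by gene length. Cox4i1 averaged 755 CPM over the 30 libraries and Cox4i2, a lung isoform, 0.939. Cox6a1 averaged 810 CPM against 0.286 for the muscle isoform Cox6a2, and Cox6b1 389 against 7.26 for Cox6b2, known from testis. Cox8a averaged 273 CPM against 0.711 for Cox8b. Cox7a1, the isoform known from heart and skeletal muscle, had 58.2 CPM beside 487 for Cox7a2. Cox7a1 was 64.5 ± 6.73 CPM in WT and 57.1 ± 16.4 in the double knockout, a log2 fold change of -0.12 ± 0.157 and an adjusted p of 0.632 in a comparison where the smooth muscle markers fell. Ndufa4, now assigned to complex IV, was 48.4 ± 11.6 and 66.8 ± 14.4 CPM, at a log2 fold change of 0.52 ± 0.199 and an adjusted p of 0.059. It was called without WT replicate 1 (0.63, 0.038) and without double knockout replicate 3 (0.62, 0.0298) or 5 (0.60, 0.0424).

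ATP synthase had 8 called members of 17 tested. Apart from Atp5o readthrough, they came from the catalytic head, the stalks and the membrane part. In WT, Atp5a1 was 633, 609.9, 599.6, 639 and 694 CPM, and in the double knockout 991, 837, 855, 819 and 703 CPM. Atp5a1, the alpha subunit of the head, did not overlap between the groups. Atp5a1 changed by 0.46 ± 0.0952 on the log2 scale (adjusted p = 0.000827). Atp5f1 was 203, 211, 255, 231 and 242 CPM in WT and 388, 319, 287, 274 and 257 CPM in the double knockout. Atp5f1, subunit b of the peripheral stalk, did not overlap either. For Atp5f1 the log2 fold change was 0.47 ± 0.1005 and the adjusted p 0.0011. In WT, Atp5d was 342, 349, 349.7, 372 and 403 CPM, and in the double knockout 747, 478, 476, 452 and 384 CPM. Atp5d, the delta subunit of the central stalk, had the smallest p of all members in this comparison. The log2 fold change was 0.53 ± 0.105 (SE), with an adjusted p of 0.000529. Double knockout replicate 1 was far above the rest for Atp5d, and without the 3 libraries that stood apart the change was 0.39 with an adjusted p of 0.00228. Atp5mpl, Atp5k, Atp5c1 and Atp5e were called as well, at 0.46, 0.80, 0.39 and 0.26; Atp5c1 and Atp5e were kept in 5 and 2 of the 10 fits without 1 library. The remaining call, Atp5o readthrough, was at 0.77 with an adjusted p of 0.0482, and was kept in 2 of those 10 fits. Its 3′ end shared 94.8% of its words with Donson, so its reads may not come from an ATP synthase gene. Atp5o itself was at -0.02, with an adjusted p of 0.935.

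The c ring of ATP synthase has 3 genes that encode the same mature protein. Atp5g3 supplied nearly all of the reads, with a mean of 1368 CPM, against 4.81 for Atp5g1 and 1.33 for Atp5g2. Atp5g3 was 1393 ± 126 CPM in WT and 1513 ± 243 in the double knockout, an adjusted p of 0.266. Atp5g1 was 5.55 ± 1.51 and 3.96 ± 1.32, at a log2 fold change of -0.43 ± 0.251 and an adjusted p of 0.234; the 3′ ends of Atp5g1 and Atp5g2 are in part shared with other genes.

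Low levels of some members went with shared 3′ ends. In the GENCODE annotation of GRCm38, the 50-base words in the last 300 bases of 32 of the 88 members also occur in transcripts of another gene, over 33% of the words for 11 members. Of the 16 members under 20 CPM, 8 were among those 11. Atp5l shared 70.1%, Cox7c 65.2%, Atp5h 59.2%, Atp5g2 55.5%, Ndufs3 53.0% and Ndufs5 47.8%, while Atp5o shared 40.9%, Uqcrb 40.6%, Atp5g1 36.0% and Cox6c 34.9%. A second locus named Atp5o, a transcript that overlaps Atp5o and its neighbour Donson, shared 94.8% and is called Atp5o readthrough here. Reads that match several genes may have been dropped or divided, so the levels of these 11 are uncertain, including the 3 called ones (Uqcrb, Cox6c and Atp5o readthrough).

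**Figure D4:**
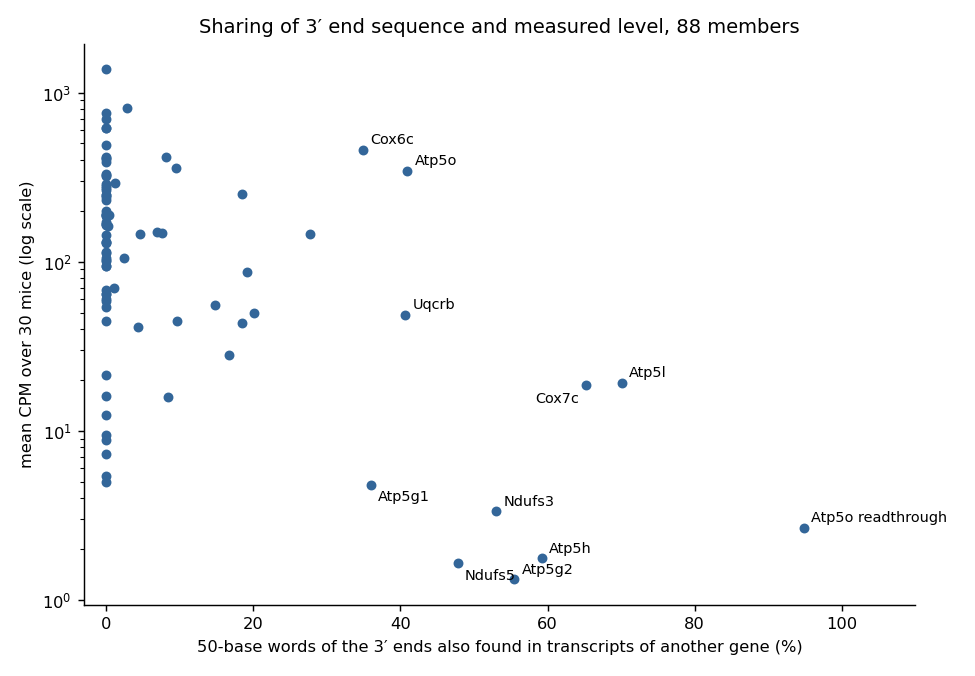
Mean CPM over the 30 mice (y axis, log scale) against the percentage of 50-base words of each member's 3′ ends that also occur in transcripts of another gene (x axis). The 11 members above 33% are named; of these, Cox6c, Atp5o and Uqcrb exceed 20 CPM.

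Promoters were searched because many members moved together. RefSeq gave a window of 250 bases before to 50 after the start, on GRCm38.p6, for 74 of the 88. Searched on both strands, the NRF1 motif was in 15.2% of member windows and 2.27% of all 32851 windows. The ETS motif bound by GABP (CCGGAAG) was in 22.8% and 8.86%, the YY1 motif (AAGATGGCG) in 10.1% and 1.403%, and the ERR motif (TCAAGGTCA) in 2.53% and 0.423%. NRF1 and GABP are the factors classically known to drive respiratory chain genes. Of the 21 called members with a window, 5 held the NRF1 motif and 5 the ETS motif; of the 53 others, 7 and 13 did. A match describes the letters of the window and not a bound site. The 250 bases before the start are shown for 4 members called in the double knockout whose window holds a motif, Ndufa11 and Ndufaf4 for NRF1 and Uqcr11 and Ndufb7 for ETS, with the motif in capitals. Ndufa11 is read from chr17:56717512-56717761, plus strand, Ndufaf4 from chr4:24897833-24898082, plus strand, Uqcr11 from chr10:80406822-80407071, minus strand, and Ndufb7 from chr8:83566508-83566757, plus strand. In Ndufa11 the motif begins 60 bases before the start, in Ndufaf4 113, in Uqcr11 66 and in Ndufb7 20.
Ndufa11: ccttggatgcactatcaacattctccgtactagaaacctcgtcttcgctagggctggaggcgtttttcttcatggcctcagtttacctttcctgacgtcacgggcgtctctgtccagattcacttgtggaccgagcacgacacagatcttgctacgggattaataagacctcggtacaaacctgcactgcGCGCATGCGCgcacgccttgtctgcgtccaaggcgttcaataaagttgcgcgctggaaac
Ndufaf4: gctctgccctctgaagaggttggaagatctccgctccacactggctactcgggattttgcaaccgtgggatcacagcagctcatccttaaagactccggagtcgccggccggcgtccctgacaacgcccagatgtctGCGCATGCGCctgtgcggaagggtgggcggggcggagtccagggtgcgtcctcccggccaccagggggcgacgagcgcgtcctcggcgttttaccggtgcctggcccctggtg
Uqcr11: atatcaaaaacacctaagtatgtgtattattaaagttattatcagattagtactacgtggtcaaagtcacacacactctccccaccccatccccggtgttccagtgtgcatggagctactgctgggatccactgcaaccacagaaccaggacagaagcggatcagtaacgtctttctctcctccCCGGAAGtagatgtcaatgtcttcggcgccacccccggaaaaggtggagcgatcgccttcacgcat
Ndufb7: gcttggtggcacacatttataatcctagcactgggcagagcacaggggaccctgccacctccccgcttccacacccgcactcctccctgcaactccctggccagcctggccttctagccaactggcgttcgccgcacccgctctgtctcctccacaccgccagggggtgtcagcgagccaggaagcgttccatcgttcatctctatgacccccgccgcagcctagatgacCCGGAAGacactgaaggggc

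Few members were called in the single knockouts. In the Xbp1 knockout no member was called by edgeR, where 0.0841% of all genes were called, and DESeq2 also called 0. An unadjusted p below 0.05 in edgeR was held by 11 of 87 members and by 2017 of the 15458 genes tested. The members' median log2 fold change was 0.03. In the Casp8 knockout 1 member was called, lower, where 0.537% of all genes were called lower, and the median was -0.06. DESeq2 called 2 members there, limma voom 3, and edgeR 2 without the 3 libraries that stood apart. Ndufa7 was 147, 147, 184, 165 and 188 CPM in WT and 126, 136, 126, 131 and 120.4 CPM in the Casp8 knockout. All 5 Casp8 knockout libraries lay below all WT libraries for Ndufa7, an accessory subunit of complex I. Such a separation also held for Ndufs1 and Uqcrc2, and for 3.84% of all genes tested. On the log2 scale Ndufa7 fell by 0.32 ± 0.0834, with an adjusted p of 0.0484. The call was lost without any 1 of WT replicates 3, 4 and 5 or of the 5 Casp8 knockout replicates, which left 0 members called.

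Against the single knockouts, the double knockout again had higher members, with the same 5 double knockout libraries in each comparison. Against the Casp8 knockout 38 members were higher and 1 lower, where 9.68% of all genes were higher and 8.71% lower. Of the 38, 12 were accessory and 4 core subunits of complex I, 6 belonged to complex III, 9 to complex IV and 7 to ATP synthase, and the lower member was Uqcrh. In the Casp8 knockout, Uqcr10 was 299, 303, 332, 346 and 295 CPM, and in the double knockout 659, 399, 484, 438 and 516 CPM. Uqcr10, a small subunit of complex III, was 1 of 20 members that did not overlap, where 3.92% of all genes were separated in this direction. Uqcr10 changed by 0.65 ± 0.104 on the log2 scale (adjusted p = 0.000116). Ndufa7 was 126, 136, 126, 131 and 120.4 CPM in the Casp8 knockout and 232, 158, 191, 159 and 199.95 CPM in the double knockout. For Ndufa7 the log2 fold change was 0.55 ± 0.0833 and the adjusted p 6.74e-05. Ndufa7 did not overlap either, and Atp5mpl, a small membrane subunit of ATP synthase, rose by 0.62 ± 0.102 with an adjusted p of 0.000159. The count called was 24 without Casp8 knockout replicate 5 and 25 without double knockout replicate 1.

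Against the Xbp1 knockout 12 members were higher and 1, Uqcrh, lower, where 4.77% of all genes were higher and 3.86% lower. They were 6 accessory and 1 core subunit of complex I, 3 members of complex III, 2 of ATP synthase and none of complex IV. In the Xbp1 knockout, Uqcrq was 262, 318, 279.6, 275 and 324 CPM, and in the double knockout 457, 333, 464, 402 and 378 CPM. The groups did not overlap for Uqcrq and 5 other members, where 3.23% of all genes were so separated. The log2 fold change was 0.45 ± 0.103 (SE), with an adjusted p of 0.00612. Ndufb7 rose by 0.50 and Atp5a1 by 0.42, with adjusted p of 0.00977 and 0.00603, and these 3 calls held in all 10 fits without 1 library. The count of calls was 4 without double knockout replicate 1 or Xbp1 knockout replicate 3, 5 without Xbp1 knockout replicate 1 or 4, and 7 without double knockout replicate 4. The members higher against all 3 of WT, Xbp1 knockout and Casp8 knockout were Atp5a1, Atp5d, Ndufa11, Ndufs7, Uqcr10, Uqcrc1 and Uqcrq. Without double knockout replicate 1, Atp5a1 and Uqcrq were still called in all 3 comparisons, and the other 5 were no longer called against the Xbp1 knockout. The list holds 7 of the 29, 12 and 38 called in the 3 comparisons, which share the double knockout libraries.

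**Figure D5:**
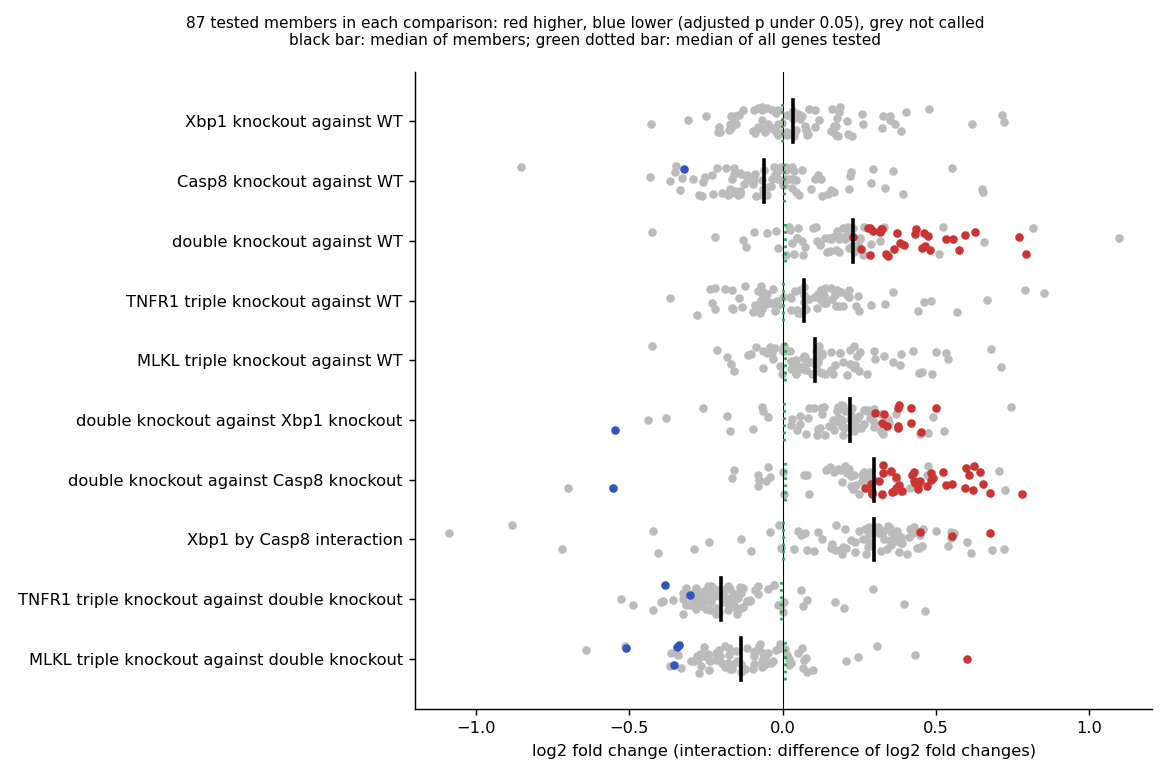
Log2 fold changes (x axis) of the 87 tested members in each of the 10 comparisons (y axis); red and blue points passed an adjusted p of 0.05, black bars mark the members' median and dotted green bars the median of all genes. The members' median is 0.23, 0.22 and 0.30 for the double knockout against WT, the Xbp1 knockout and the Casp8 knockout, and -0.20 and -0.14 for the TNFR1 and MLKL triple knockouts against the double knockout.

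The interaction asks whether the change of both deletions together differs from the sum of the single changes on the log2 scale. It was above 0 for 75 of 87 members, with a median of 0.30, and for 50.4% of all genes tested, with a median of 0.003. It uses the same libraries as the comparisons above, so the signs are not separate from those counts. Called were 3 members, all positive, where 0.712% of all genes were called positive and 0.666% negative. DESeq2 called 12 members, 11 positive and 1 negative, limma voom 5, and edgeR 0 with sex in the model. Uqcr10 changed by -0.02 with Xbp1 lost, -0.34 with Casp8 lost and 0.32 with both, an interaction of 0.68 ± 0.147 with an adjusted p of 0.0226. Ndufa7 changed by 0.10, -0.32 and 0.23, an interaction of 0.45 with an adjusted p of 0.0493. Ndufb8 was 315, 327, 376, 391 and 446 CPM in WT and 543, 341, 460.02, 365 and 391 CPM in the double knockout. Ndufb8, a complex I accessory subunit used as a marker of assembled complex I, overlapped widely between these groups, and was 285, 286, 307, 325 and 289 CPM in the Casp8 knockout, where replicate 4 alone reached the WT range. Its interaction was 0.55 with an adjusted p of 0.0448. The calls rested on single libraries: 0 members were left without WT replicate 5, Casp8 knockout replicate 1 or Casp8 knockout replicate 5 and without the 3 libraries that stood apart. There was 1 without Xbp1 knockout replicate 1, 3 or 4, Casp8 knockout replicate 2 or 3, or double knockout replicate 1 or 5, and 5 without double knockout replicate 2.

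With TNFR1 also removed, no member was called against WT by edgeR, where 2.12% of all genes were called. An unadjusted p below 0.05 was held by 8 of 87 members and by 2718 of the 15458 genes tested. DESeq2 and limma voom each called 2 members. Leaving out TNFR1 triple knockout replicate 2 or 3 gave 1 and 2 calls. Relative to the double knockout, 77 of 87 members had a negative log2 fold change and the median was -0.20, while 49.5% of all genes tested had a positive one. Called lower were 2 members, where 1.33% of all genes were called lower. In the double knockout, Uqcr10 was 659, 399, 484, 438 and 516 CPM, and in the TNFR1 triple knockout 345, 366, 457, 365 and 353 CPM. The TNFR1 triple knockout overlapped the double knockout at its replicate 3. On the log2 scale Uqcr10 fell by 0.38 ± 0.104, with an adjusted p of 0.0435. Ndufa7 was 232, 158, 191, 159 and 199.95 CPM in the double knockout and 149, 145, 168, 145 and 146 CPM in the TNFR1 triple knockout. Ndufa7 changed by -0.30 ± 0.0827 on the log2 scale (adjusted p = 0.0452). Here too TNFR1 triple knockout replicate 3 was the highest of its group and the 1 library within the double knockout range. It came from the only male of its group, whereas in the double knockout replicate 3 was the only female. With sex in the model no member was called between these groups. No member was called without double knockout replicate 1 or 4 or TNFR1 triple knockout replicate 2, 4 or 5; 1 was called without double knockout replicate 5, 4 without double knockout replicate 2 and 5 without TNFR1 triple knockout replicate 1. DESeq2 called 4. Between the same groups 5 of 8 smooth muscle markers were higher in the TNFR1 triple knockout (median 0.67), where 1.02% of all genes were called higher. Lower were 3 of 7 goblet cell markers (median -0.58), 1 of 10 colonocyte markers (-0.08) and 1 of 5 plasma cell markers (-1.27). The part of these in the members' values was not tested.

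With MLKL also removed, no member was called against WT by edgeR, where 0.854% of all genes were called, and DESeq2 called 0. An unadjusted p below 0.05 in edgeR was held by 17 of 87 members and by 2373 of the 15458 genes tested. Positive values were nevertheless frequent, in 70 of 87 members with a median of 0.11, against 51.1% of all genes tested. Against the double knockout 4 members were lower and 1 higher, where 4.21% of all genes were lower and 3.44% higher, so the share of members called lower was close to that of all genes. In the double knockout, Ndufa11 was 223, 163, 180.00, 161 and 164 CPM, and in the MLKL triple knockout 144, 147, 137, 156 and 139 CPM. The groups did not overlap for Ndufa11, nor for Ndufv2, where 1.62% of all genes were so separated. For Ndufa11 the log2 fold change was -0.35 ± 0.0924 and the adjusted p 0.0184. Uqcrq fell by 0.36, Uqcrb by 0.51 and Atp5d by 0.34, and Uqcrh rose by 0.60 ± 0.173 with an adjusted p of 0.0293. Uqcrh was 641, 366, 425, 367 and 504 CPM in the double knockout and 865, 615, 542, 863 and 699 CPM in the MLKL triple knockout. The 2 groups overlapped for Uqcrh through double knockout replicate 1. The count of calls was 1 without double knockout replicate 1 or 4 or MLKL triple knockout replicate 4, 2 without double knockout replicate 2 and 3 without MLKL triple knockout replicate 2. All 5 MLKL triple knockout mice were female, against 1 of 5 in the double knockout and in WT. Genotype and sex are therefore hardly separable in these comparisons, including for the genes whose libraries did not overlap. With sex in the model 3 members were called against the double knockout. DESeq2 called 8. Of the markers, 5 of 8 for smooth muscle were higher in the MLKL triple knockout, with a median of 0.58, and 5 of 5 for plasma cells, 2 of 7 for leukocytes and 2 of 8 for epithelium were lower, the plasma cell median being -2.02; their part was not tested. Comparisons against the double knockout share its libraries with the comparison of the double knockout and WT.

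The mitochondrially encoded subunits did not follow the nuclear ones. Their 13 genes summed to 57689, 57186, 54896, 58289.8 and 58604 CPM in WT and 51221, 42183, 44000.00, 27149.9 and 38396 CPM in the double knockout, where all 5 libraries were below all WT libraries. The same separation from WT held in the Xbp1 knockout, from 41165 to 49499 CPM, the Casp8 knockout, from 48559 to 54431 CPM, and the MLKL triple knockout, from 34759 to 53521 CPM. Among all single genes tested, 8.02% were so separated in the double knockout and 4.68% in the Xbp1 knockout. The share was 3.84% in the Casp8 knockout and 2.78% in the MLKL triple knockout. In the TNFR1 triple knockout the sum ran from 39435 to 57957 CPM, and replicate 3 alone lay in the WT range. Divided by the summed nuclear members, this gave 3.43 ± 0.304 in WT and 2.11 ± 0.329 in the double knockout, from 3.07 to 3.82 and from 1.56 to 2.44. Loss of Xbp1 alone came with a ratio of 2.86 ± 0.431 and loss of Casp8 alone with 3.27 ± 0.240. Among the triple knockouts it was 2.79 ± 0.325 for TNFR1 and 2.40 ± 0.439 for MLKL. Of the 7 of the 13 that could be tested, mt-Nd4 fell by 0.70, mt-Nd2 by 0.69 and mt-Co1 by 0.45 in the double knockout against WT, and none rose. CPM are shares of a total that includes these reads. With mitochondrially encoded and immunoglobulin genes left out of the scaling factors, 27 members were called higher.

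Other genes of mitochondrial energy metabolism were compared in the double knockout and WT. Among 39 assembly factors outside the Nduf names, 2 rose and 1 fell, with a median of 0.12. Sdhaf1, needed to mature Sdhb, rose by 0.67, and Coa6, a copper factor of complex IV, by 0.81. Lyrm7, an assembly factor for the Rieske protein, fell by 0.74. Of 22 genes of cytochrome c and coenzyme Q, 3 rose and 1 fell; Cyc1, the cytochrome c1 subunit of complex III whose symbol the rule misses, rose by 0.54 with an adjusted p of 0.00028, and Pdss1, of the coenzyme Q side chain, by 0.59. Of 77 mitochondrial ribosomal proteins 13 rose and none fell, with a median of 0.17. Of 19 genes of the TCA cycle and pyruvate dehydrogenase, Idh3g and Idh3a rose by 0.35 and 0.40. Among 17 regulators of mitochondrial biogenesis, Hif1a and Pparg rose by 0.80 and 1.06, and Ppargc1a, the coactivator known as PGC-1α, fell by 0.51. Glycolysis and lactate handling had 7 of 16 higher and none lower, with a median of 0.39, among them Ldha at 0.80 and Tpi1 at 0.62. Beside these counts stand 11.1% of all genes called higher and 10.2% lower.

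Markers of other cell types moved in the same comparison. All 8 smooth muscle markers fell, by a median of 1.04, and their sum ran from 6239 to 8730 CPM in WT and from 2877 to 4329 in the double knockout. Of 8 general epithelial markers, a list chosen after seeing the data, 5 rose and none fell, among them Epcam by 0.42, and their sum ran from 5603 to 6821 CPM in WT and from 6862 to 8714 in the double knockout. Leukocyte markers rose in 6 of 7 tested, their sum running from 153 to 340.3 CPM and from 334 to 1202, and all 5 plasma cell markers rose, their sum running from 386 to 1516 and from 2469 to 15102 CPM. The 10 colonocyte markers, which define the main epithelial cell of this tissue, split, with Krt20 and Slc9a3 higher and Car1 lower, and of 7 goblet cell markers Muc2, Clca1 and Fcgbp fell and Spink4 rose. Enteric neuron and glia markers fell in 4 of 6 tested, skeletal muscle in 1 of 5 and adipose in 1 of 4. Against the Xbp1 and the Casp8 knockout, 7 of 8 smooth muscle markers were lower in the double knockout and all 5 plasma cell markers higher in each comparison, and epithelial markers were higher in 2 and 4 of 8. Every listed marker had reads in at least 1 library. The part of these shifts in the members' higher levels was not tested.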

How the data were processed

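RNA of 30 mouse colons, 5 for each of 6 genotypes, was sequenced with a 3′ end kit (Lexogen QuantSeq FWD), per the labels' protocols. The deposited table holds estimated counts per Ensembl gene. The submitters' processing notes name cutadapt 3.2, Subread, featureCounts 2.01, R 4.0.0 and the build GRCm38 (mm10); the sources used here give no counting options or strand. Of the nonzero values, 11.2% were not whole, and all were rounded. Spike-in rows (92, with 0 reads) and identifiers without a match in the GENCODE annotation (0.0190% of reads) were left out of the tests.

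CPM are counts divided by the column total. Fold changes come from edgeR 4.0.16 (quasi-likelihood F test, TMM scaling, filterByExpr, all 30 libraries in 1 fit, R 4.3.3), with Benjamini-Hochberg adjustment over 15458 genes in each of 10 comparisons and a threshold of 0.05. Common dispersion corresponded to a coefficient of variation of 0.186. The fit was tested on simulated data. A member that was not called is not shown to be unchanged. Scaling moved group means by at most 0.083 on the log2 scale. The labels give no cages or litters.

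Members, lists and tests were chosen with earlier results of these data known. Genes named are those of smallest p in each class and comparison (up to 3 in each direction), those of highest mean CPM in each class, isoform families, complex II, and up to 2 genes in each direction of each further list; other called members are named where they make up a count given. A further list is not reported here. Alternatives were DESeq2 1.42.0 and limma 3.58.1 with voom and sample quality weights, called limma voom here. Further ones were other scaling and filters, a replicate block, sex in the model, fits of the compared groups alone and leaving out each library.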

Additional observations from a re-analysis of the deposited data

Results flagged for a closer look

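In each group of 5 libraries the highest and lowest values of the members named and of the summed complexes were compared with the nearest other library. Of 264 groups, 16 had a library standing apart by Dixon's 95% criterion; chance flags about 1 in 20 groups. Double knockout replicate 1 was the highest in 8 of them: 1203 CPM summed over complex I core subunits, 6093 CPM over complex IV, and 747 CPM for Atp5d, 1277 for Cox4i1, 200.2 for Cox7a2l, 152 for Ndufs4, 179.6 for Ndufs7 and 335 for Sdha. WT replicate 5 was the highest in 4: 768 CPM summed over complex II, 828 for Cox4i1, 307 for Sdha and 275 for Uqcrc1. TNFR1 triple knockout replicate 3 stood apart for Ndufa7 (168 CPM) and Uqcr10 (457 CPM), Xbp1 knockout replicate 4 for Ndufa7 (186 CPM) and MLKL triple knockout replicate 3 for Sdhc (263 CPM).

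The effect of losing Casp8 differed with the state of Xbp1 for 3 members by the interaction test of edgeR, with adjusted p of 0.0448 for Ndufb8, 0.0493 for Ndufa7 and 0.0226 for Uqcr10. The interactions on the log2 scale were 0.55, 0.45 and 0.68. Without the 3 libraries that stood apart they were 0.50, 0.38 and 0.60, and none passed.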

How the results depend on the processing

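None of the named members called in the double knockout against WT changed direction in the 20 alternatives; those below the threshold did at values near 0. Ndufa6 and Sdhb went to -0.00536 and -0.0629 and Cox8a to -0.0422 without the 3 libraries left out together, a choice made after seeing the data. Over the fits without 1 library Cox6b2 ran from -0.15 to 0.10, Cox7a1 from -0.24 to 0.0137, Cox8a from -0.0504 to 0.14, Ndufa6 from -0.0139 to 0.23 and Sdhb from -0.0721 to 0.14.

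Over the fits without 1 library, members called ran from 16 to 33 in the double knockout against WT, from 24 to 44 against the Casp8 knockout and from 4 to 16 against the Xbp1 knockout. They ran from 0 to 1 in the Casp8 knockout against WT, 0 to 2 in the TNFR1 triple knockout against WT, 0 to 5 for the interaction, 0 to 5 for the TNFR1 and 1 to 7 for the MLKL triple knockout against the double knockout. With those 3 libraries out, the double knockout had 18 calls against WT, 4 against the Xbp1 and 25 against the Casp8 knockout; the interaction had 0, the Casp8 knockout 2, the TNFR1 triple knockout 2 against WT and 0 against the double knockout, and the MLKL triple knockout 2 against the double knockout.

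With only the groups compared in the fit, calls were 16, 6 and 21 for the double knockout against WT, the Xbp1 and the Casp8 knockout, 0 for the Casp8 knockout, 1 for the TNFR1 triple knockout against WT, 1 for the interaction, and 0 for both triple knockouts against the double knockout. DESeq2 gave 2 for the Casp8 knockout, 2 and 4 for the TNFR1 triple knockout against WT and the double knockout, 12 for the interaction and 8 for the MLKL triple knockout against the double knockout; limma voom gave 3, 2, 1, 5 and 2. Without a low-count filter calls were 0 for the Casp8 knockout, 8 for the double against the Xbp1 knockout, and 1 and 0 for the TNFR1 triple knockout against WT and the double knockout. Sex in the model gave 0 for the Casp8 knockout, the interaction and the TNFR1 triple knockout against the double knockout, and 3 for the MLKL triple knockout against it. The causes were not tested. Except where a share is printed beside a count, the share of all genes called under these alternatives is not given. A changed count is therefore not shown to be particular to the members.

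The labels do not say that replicate numbers pair the mice. Over 75 same-numbered pairs the correlation of deviations ran from -0.27 to 0.278 (median 0.00102), with 19 above 0.1. Such correlations cannot decide whether same-numbered mice shared a cage or litter. With the replicate block, calls were 24 in the double knockout against WT, 8 against the Xbp1 knockout, 1 for the interaction, and 0 for the Casp8 knockout and for the TNFR1 triple knockout against the double knockout.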
